A study of Rattus norvegicus albus with 6 samples.

Results

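The comparison set side by side the 2 vehicle-treated control cultures of a rat hepatic stellate cell study, the control for the compound FJ9 and the control for the compound ICG-001. For each gene the log2 level on the FJ9 vehicle array minus that on the ICG-001 vehicle array was taken, so a positive value means higher on the FJ9 vehicle array. The 2 arrays were chosen by their labels, out of 6 arrays in the series. The stellate cells (Rattus norvegicus albus) were kept 7 days on plastic in 10% serum, and the compounds or their vehicles were then given for 24 h without serum, ICG-001 at 10 µM and FJ9 at 200 µM. The other 2 arrays came from cells infected for 24 h at a multiplicity of 200 in 5% serum with an adenovirus for the Wnt antagonist DKK-1 (Ad.DKK-1) or for green fluorescent protein (Ad.GFP), followed by 24 h without serum. Each array carried RNA pooled from 3 to 4 rats. What the vehicle of each compound contained, and whether the vehicle pools came from the same animals or were cultured on the same day, is not stated in the sources used here. With 1 array a group no replicate spread could be measured and no test was made: the differences below describe these pools, and vehicle, animals, culture and array handling cannot be told apart.

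Hepatic stellate cells are the vitamin A storing pericytes of the liver. On plastic they lose their retinoid droplets and turn into contractile, collagen-secreting myofibroblasts, the cells that lay down scar in liver fibrosis. Several gene programmes of such cultures are known to follow their surroundings rather than their identity: the enzymes of fatty acid and cholesterol synthesis are driven by the SREBP transcription factors when cell sterols fall, antiviral genes are driven by interferon, and chemokine genes are driven by NF-kB downstream of Toll-like and cytokine receptors.

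Most genes read alike on the vehicle arrays. Of 14322 genes with a named probe set, 10025 lay above the lowest 30% of mean level and were kept, and their levels on the arrays correlated across genes with Pearson's r of 0.975 and a Spearman rank correlation of 0.972 (a description, since genes are not independent). The median difference over the 10025 genes was 0.02 on the log2 scale with an SD over genes of 0.34, and 62.7% of genes differed by less than 0.25. At least 1.5-fold apart were 766 genes (7.64%), of which 245 (2.44%) were higher and 521 (5.2%) lower on the FJ9 vehicle array. At least 2-fold apart were 31 genes in the higher and 83 in the lower direction, and at least 4-fold 2 and 5 genes. The excess of lower genes depended on the scale. The deposited array medians over all probe sets were 7.28 for the ICG-001 vehicle and 7.15 for the FJ9 vehicle, a shift of −0.13. Centring the arrays on these medians turned the split to 575 higher and 265 lower. Over the kept genes alone the deposited medians were 8.56 for the ICG-001 vehicle and 8.62 for the FJ9 vehicle. The centring therefore moved the kept genes' median difference from 0.02 to 0.16, which favours higher calls. A repeated quantile normalization gave 457 higher and 407 lower, and a loess correction for level gave 366 and 351.

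The difference also varied with level. When the kept genes were divided by mean level into 5 bins of 2005, in the lowest bin (mean level 6.39 to 7.20) the median difference was −0.20, with 79 genes higher and 271 lower. In the bins above it the medians were 0.03, 0.09, 0.06 and 0.03. The highest bin (mean level of at least 10.05) held 9 higher and 13 lower genes. A lower reading of a weakly expressed gene on the FJ9 vehicle array was therefore common, and among the lipid and inflammatory genes named next Birc3 (mean level 7.06), Il1a (7.18) and Nod2 (6.56) lie in that range.

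**Figure D1:**
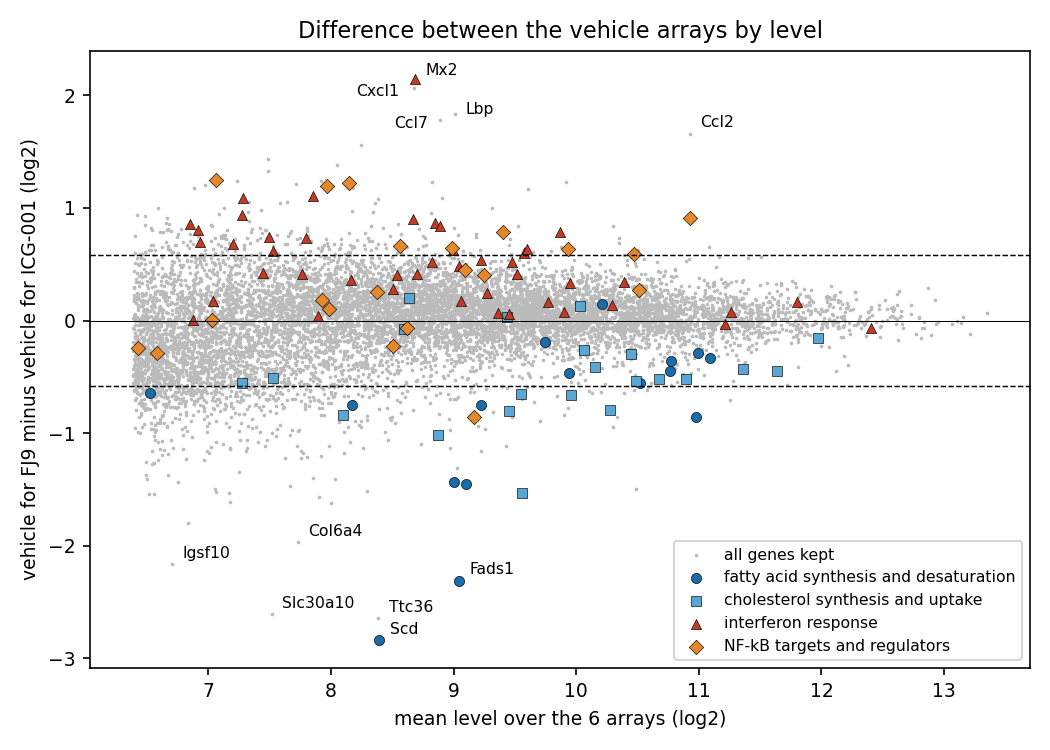
Each point is 1 of 10025 genes, plotted by its mean log2 level over the 6 arrays and by its log2 difference, FJ9 vehicle minus ICG-001 vehicle, with dashed lines at 1.5-fold. Members of the fatty acid and cholesterol lists lie mostly below 0 at middle to high levels, members of the interferon and NF-kB lists mostly above 0, and the cloud of all genes bends down at its low end, where the lowest bin of 2005 genes has a median of −0.20.

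Genes of fatty acid synthesis and desaturation were lower on the FJ9 vehicle array. Of 16 kept members, 8 were at least 1.5-fold lower and 0 higher, 15 lay below 0, and the median was −0.60, against 0.02 over all genes. The list was led by Scd, a stearoyl-CoA desaturase that makes oleic acid and showed the largest decrease of all kept genes. Scd read 11.09 on the ICG-001 vehicle array and 8.26 on the FJ9 vehicle array, a 7.13-fold difference (−2.83 on the log2 scale). On the remaining arrays it read 9.65 with Ad.GFP, 8.31 with ICG-001, 7.28 with Ad.DKK-1 and 5.77 with FJ9, so the ICG-001 vehicle array was the highest of the 6 and the FJ9 vehicle array stood beside the ICG-001-treated one. Fads1, the delta-5 desaturase of polyunsaturated fatty acids, had the same order at the top. It read 10.92 on the ICG-001 vehicle array, 10.29 with Ad.GFP, 9.34 with ICG-001, 8.61 on the FJ9 vehicle array, 8.37 with Ad.DKK-1 and 6.73 with FJ9, a vehicle difference of −2.31. Its neighbour in the pathway, the delta-6 desaturase Fads2, differed by −1.43 (11.02 against 9.59).

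Differences of the same sign were seen in other lipogenic genes. Acss2, which makes acetyl-CoA from acetate in the cytosol, read 10.68 and 9.23 on the ICG-001 and FJ9 vehicle arrays, a difference of −1.45. Scd2, another stearoyl-CoA desaturase, read 12.57 and 11.71 (−0.86). The elongase Elovl6 read 9.44 and 8.69 (−0.75). The ICG-001 vehicle array was the highest of all 6 arrays for 13 of the 16 members, against 15.0% of all kept genes, a count that uses the arrays of the difference itself. The list's median level was 10.85 on the ICG-001 vehicle array, 10.34 with Ad.GFP, 9.93 with ICG-001, 9.89 on the FJ9 vehicle array, 9.82 with Ad.DKK-1 and 8.97 with FJ9.

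Sterol genes were lower on the FJ9 vehicle array too. Of 22 kept genes of cholesterol synthesis and uptake, 7 were at least 1.5-fold lower and 0 higher, with a median of −0.52. The ICG-001 vehicle array was the highest of the 6 for 19 of them, against 15.0% of all kept genes. That count again uses the arrays of the difference itself. Tm7sf2, a sterol C14-reductase, read 11.21 on the ICG-001 vehicle array and 9.68 on the FJ9 vehicle array (−1.53), with the other 4 arrays between 8.25 and 10.89. Ebp, the sterol isomerase, differed by −1.02 (9.89 against 8.88). Mvd, which makes isopentenyl diphosphate, differed by −0.84. Dhcr7, which carries out the last step to cholesterol, differed by −0.80 (10.72 against 9.92), and Lss, the lanosterol synthase, by −0.66 (−0.53 after median centring). Lists of genes that burn or export lipid had medians near 0. Among 25 kept genes of fatty acid oxidation and PPAR targets the median was −0.03, with 0 higher and 4 lower. Those 4 are a larger share than the 5.2% lower over all kept genes, so a few members did read lower. Among 11 kept LXR targets the median was 0.03, with 0 higher and 1 lower. The lower LXR-list member was the phospholipid acyltransferase Lpcat3 (11.89 against 11.19, −0.70, but −0.57 after median centring).

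Interferon-stimulated genes were higher on the FJ9 vehicle array. Of 45 kept members, 43 lay above 0, 18 were higher by at least 1.5-fold and 0 lower, and the median was 0.42. Mx2, an antiviral GTPase, showed the largest increase of all kept genes, 4.43-fold (2.15 on the log2 scale). It read 8.32 on the ICG-001 vehicle array, 10.47 on the FJ9 vehicle array, 10.99 with Ad.GFP, 8.09 with Ad.DKK-1, 7.96 with ICG-001 and 6.30 with FJ9. Its paralogue Mx1 read 8.66 on the ICG-001 vehicle array and 9.76 on the FJ9 vehicle array (1.11), with 10.38 for Ad.GFP and between 5.16 and 7.08 on the treated arrays. Usp18, the protease that strips ISG15 from proteins and damps interferon signalling, read 7.00 and 8.09 (1.08). Isg15 itself read 8.73 and 9.63 (0.90), and Irf7, the transcription factor that amplifies interferon production, read 8.70 and 9.57 (0.87).

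The 3 control arrays were ordered alike for most of these genes. For 37 of the 45 members the Ad.GFP array was the highest of the 6 (17.3% of all kept genes), and for 29 of them the FJ9 vehicle array was second (5.05% of all kept genes). Ad.GFP read nearer to the FJ9 vehicle than to the ICG-001 vehicle for 41 of 45, against 49.8% of all kept genes. That count follows largely from Ad.GFP being highest while the FJ9 vehicle read above the ICG-001 vehicle. The FJ9 vehicle cells received no virus per the labels. The other infected culture, Ad.DKK-1, read low on this list: its median level was 8.58, against 10.00 with Ad.GFP, 9.55 on the FJ9 vehicle array and 8.83 on the ICG-001 vehicle array. Genes of class I antigen processing, many of which interferon also induces, were shifted less: of 13 kept members 11 lay above 0, 1 was higher by at least 1.5-fold and 0 lower, with a median of 0.22. The member past the limit was the class I gene RT1-M3-1 (7.04 against 7.65, 0.61), and the immunoproteasome subunit Psmb9 read 9.51 and 9.79 (0.29). Class I genes of the rat RT1 region are near-identical copies, so a probe set of one may also bind others.

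Inflammatory genes downstream of NF-kB were also higher on the FJ9 vehicle array. Of 21 kept NF-kB targets and regulators, 9 were higher by at least 1.5-fold and 1 lower, 16 lay above 0 and 5 below, and the median was 0.40. The chemokine genes Cxcl1, Ccl2 and Ccl7, described next, were counted in a separate list of chemokines and cytokines, not among these 21. Cxcl1, a neutrophil-attracting chemokine, was the gene with the second largest increase of all. It read 6.92 on the ICG-001 vehicle array and 8.99 on the FJ9 vehicle array (4.18-fold, 2.07 on the log2 scale), beside 9.79 with Ad.DKK-1, 9.52 with Ad.GFP, 9.65 with FJ9 and 7.21 with ICG-001. The ICG-001 vehicle and the ICG-001-treated arrays were the 2 lowest, and the other 4 arrays did not overlap with them. The monocyte chemoattractant Ccl2 had another order: 10.29 and 11.95 on the ICG-001 and FJ9 vehicle arrays (1.66), 11.60 with Ad.GFP, 10.97 with Ad.DKK-1, 10.39 with FJ9 and 10.34 with ICG-001. Ccl7, a related monocyte chemoattractant, read 8.04 and 9.82 (1.78).

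Regulators of the pathway were among the largest increases. Birc3, an ubiquitin ligase of TNF receptor signalling, read 6.35 and 7.60 (1.25). Zc3h12a, an RNase that degrades cytokine messages, read 7.47 and 8.69 (1.22). The nuclear IkB protein Nfkbiz read 7.08 and 8.28 (1.20). The mitochondrial superoxide dismutase Sod2, an NF-kB target, read 10.55 and 11.46 (0.91), and Tnip1, which restrains NF-kB, read 9.26 and 10.04 (0.78). For 7 of the 21 members the ICG-001 vehicle array was the lowest of the 6, against 14.9% of all kept genes. That count uses an array of the difference itself, so the list's higher median already favours it. The 1 member lower by at least 1.5-fold was Ptgs2, the inducible cyclooxygenase (10.22 against 9.36, −0.85).

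Some genes that sense microbial products were higher on the FJ9 vehicle array. Lbp, the binding protein that carries lipopolysaccharide to CD14, read 8.07 on the ICG-001 vehicle array and 9.90 on the FJ9 vehicle array (1.83). Tlr2, the receptor of bacterial lipopeptides, read 6.88 and 8.32 (1.43), its partner Tlr6 7.51 and 8.17 (0.66), and the peptidoglycan sensor Nod1 8.08 and 8.86 (0.78). Of 17 kept pattern receptors and adaptors, 4 were higher by at least 1.5-fold and 0 lower, with a median of 0.11, with 12 members above 0 and 5 below. The largest difference below 0 was that of Nod2, another peptidoglycan sensor, which stayed inside 1.5-fold (7.03 against 6.45, −0.58). Among 13 kept chemokines and cytokines, 4 were higher and 1 lower, with a median of 0.25 (0.22 less the median of all genes, and 0.50 with the lowest 50% of genes left out). The higher members besides Cxcl1, Ccl7 and Ccl2 included Cxcl10, an interferon-induced chemokine (7.52 against 8.45, 0.93), and the lower one was Il1a (7.51 against 6.75, −0.76). Among 19 kept complement and acute phase genes Lbp alone passed 1.5-fold, and the median was 0.01.

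**Figure D2:**
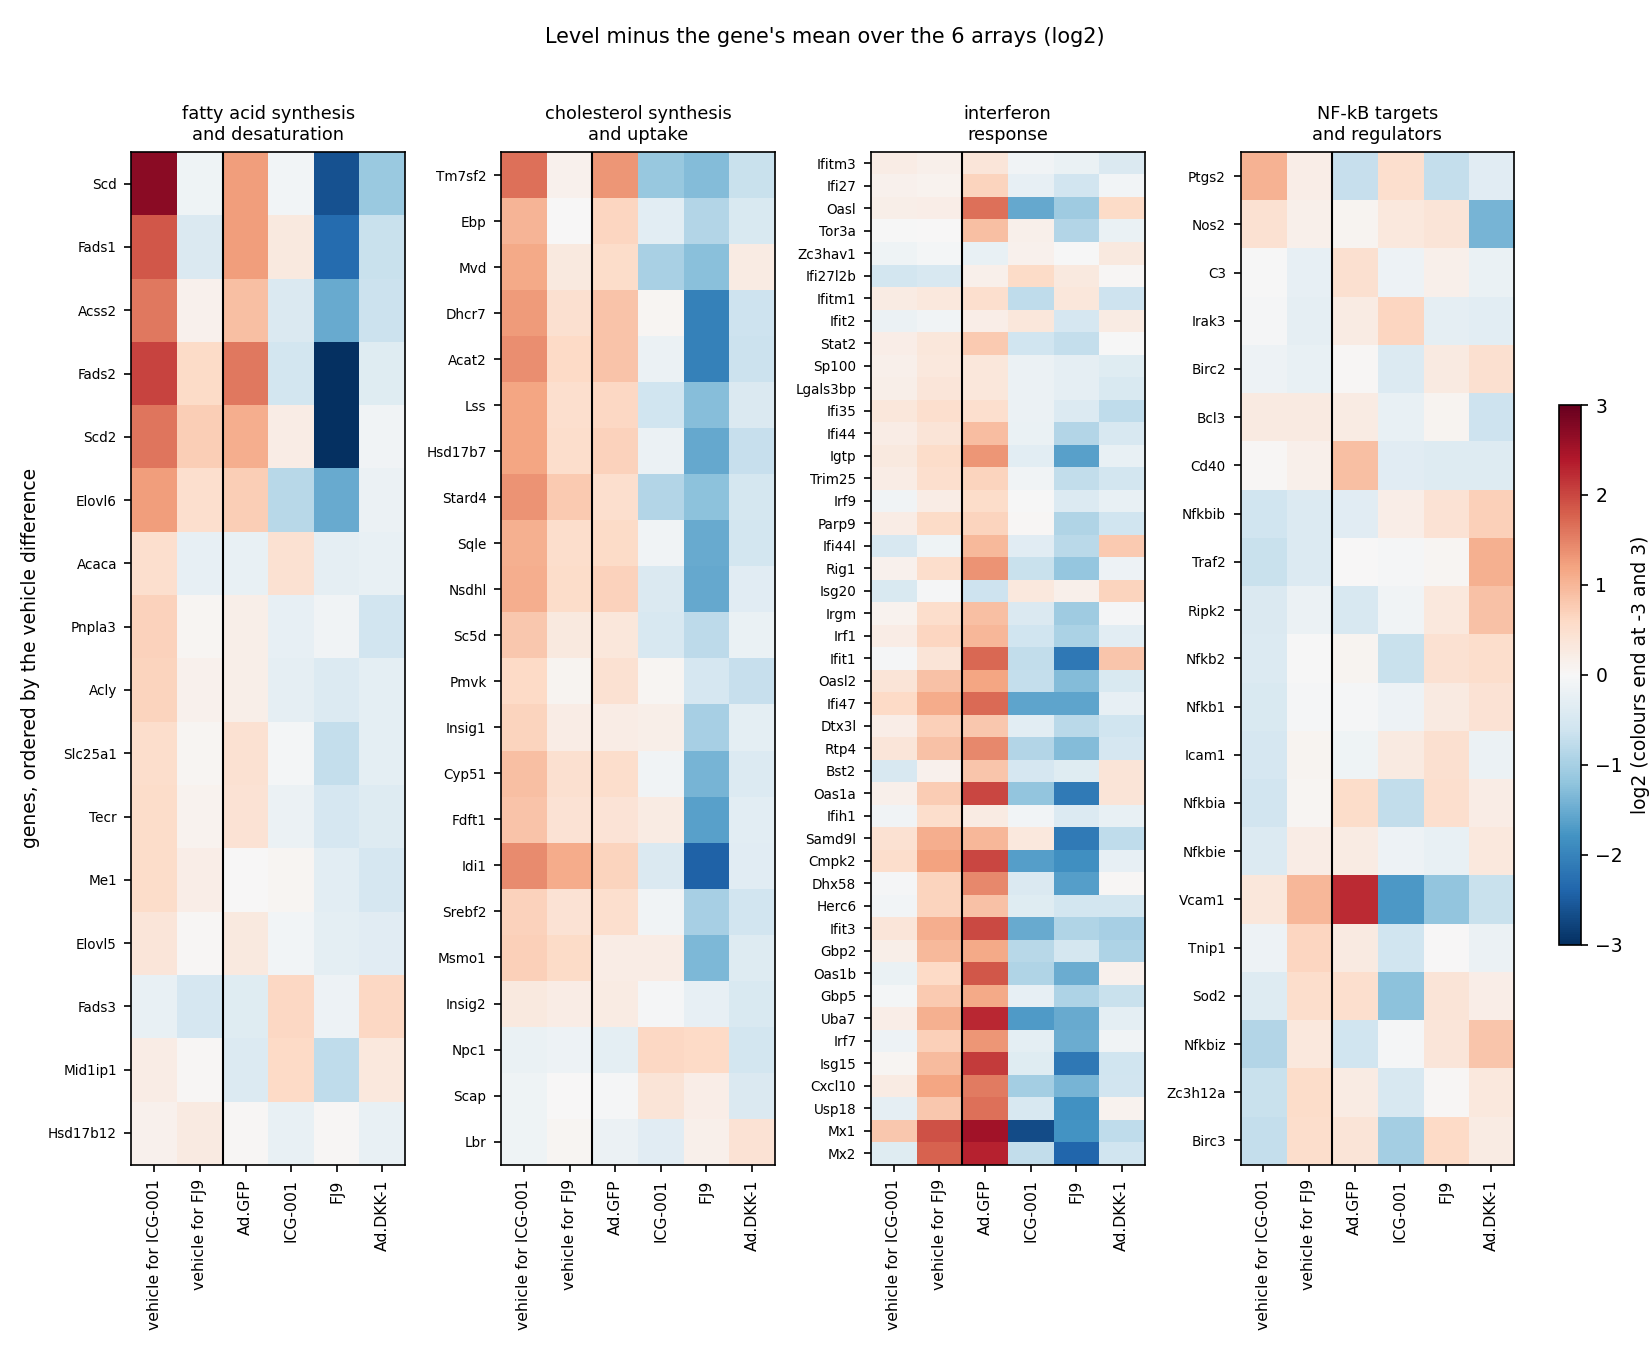
Each row is 1 kept gene of 4 lists and each column 1 array, with the colour giving the log2 level minus that gene's mean over the 6 arrays. The ICG-001 vehicle column is the reddest for 13 of 16 fatty acid genes and 19 of 22 cholesterol genes, and the Ad.GFP column is the highest for 37 of 45 interferon genes with the FJ9 vehicle second for 29.

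The largest increases included 2 metallothioneins. Mt2A, a metal-binding protein induced by zinc and by glucocorticoids, read 6.42 on the ICG-001 vehicle array, 7.98 on the FJ9 vehicle array (1.56) and 11.50 on the FJ9 array. Mt1 read 6.18, 7.26 (1.08) and 11.81 on the same arrays. On these probe sets the ICG-001 vehicle array was the lowest of the 6 for both genes. The other probe set of Mt2A differed less, by 0.66 (6.52 against 7.18), and that of Mt1 by 1.05. Glucocorticoid-responsive genes did not shift as a list: of 14 kept members, 2 were higher (these metallothioneins) and 0 lower, with a median of −0.04. Of 28 kept genes of metal homeostasis, 2 were higher and 2 lower with a median of 0.00.

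Several further increases were in genes of matrix, adhesion and contraction. Dpysl3, a cytoskeletal protein of migrating cells, read 7.70 and 9.08 on the ICG-001 and FJ9 vehicle arrays (1.38), with 9.40 on the ICG-001 array and between 7.23 and 7.47 on the Ad.DKK-1, Ad.GFP and FJ9 arrays. Calponin Cnn1, of smooth muscle type actin filaments, read 8.08 and 9.13 (1.05), with 9.17 on the ICG-001 array and between 7.21 and 8.37 on the Ad.DKK-1, Ad.GFP and FJ9 arrays. The matricellular protein Ccn4, a Wnt-inducible gene, read 8.32 and 9.49 (1.17) and was highest of the 6 on the FJ9 vehicle array. Frzb, a secreted Wnt antagonist, read 7.51 and 8.72 (1.21). Mmp12, the macrophage elastase that other cells can also make, read 9.37 and 10.54 (1.17), and the serine protease inhibitor Tfpi2 read 9.46 and 10.69 (1.23). Cd200, which restrains myeloid cells, read 9.40 and 10.64 (1.23), above the 4 other arrays (6.56 to 9.93). Txnip, which binds thioredoxin and limits glucose uptake, read 8.97 and 9.97 (1.00).

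**Figure D3:**
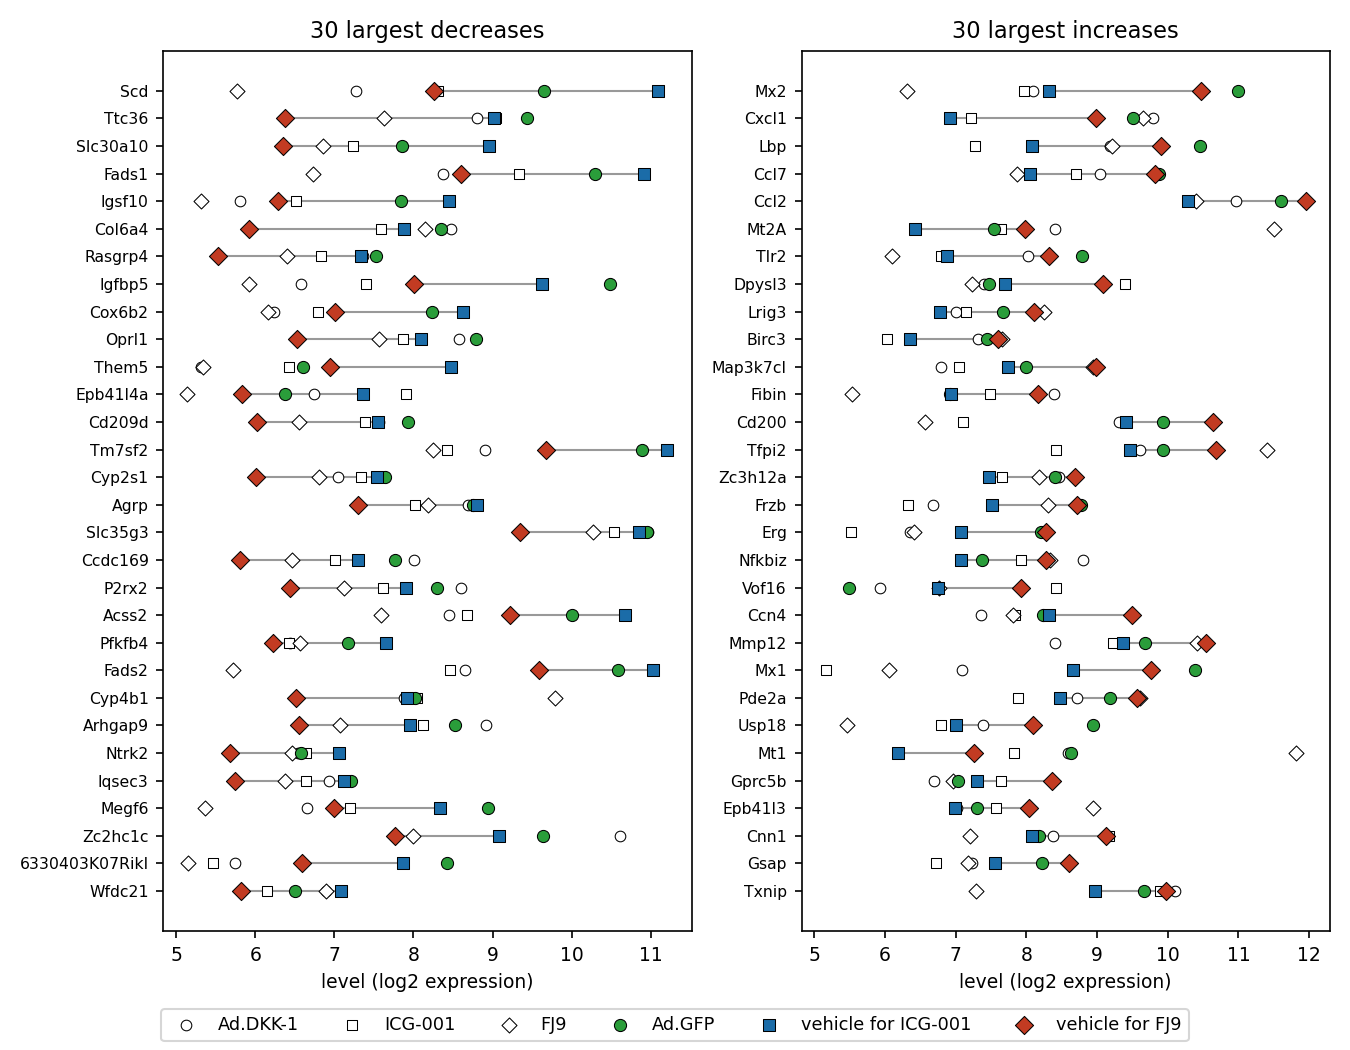
Log2 levels on all 6 arrays of the 30 genes with the largest decreases (left) and the 30 with the largest increases (right), FJ9 vehicle minus ICG-001 vehicle, with a grey line joining the vehicle arrays. Of the 30 decreases the FJ9 vehicle array is the lowest of the 6 for 18 and the ICG-001 vehicle array the highest for 13. Of the 30 increases the FJ9 vehicle array is the highest for 9 and the ICG-001 vehicle array the lowest for 8.

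The decreases fell into different arrangements over the 6 arrays. Among the 30 largest, the ICG-001 vehicle array alone stood out (highest of the 6, FJ9 vehicle not lowest) for 8, the FJ9 vehicle array alone (lowest of the 6, ICG-001 vehicle not highest) for 13, both for 5 and neither for 4. Since the genes were chosen by the difference of these arrays, such extreme positions are favoured by the choice. The first of these held the lipid genes Scd, Fads1, Tm7sf2, Acss2 and Fads2, and with them Igsf10, a large secreted immunoglobulin-domain protein, which read 8.45 on the ICG-001 vehicle array and 6.29 on the FJ9 vehicle array (−2.17), with 7.84 for Ad.GFP and 5.32 to 6.52 on the treated arrays. The genes in which neither vehicle was extreme and Ad.GFP read highest included Igfbp5 and Megf6. Igfbp5, a secreted binding protein of insulin-like growth factors, read 9.62 on the ICG-001 vehicle array and was 3.07-fold lower on the FJ9 vehicle array (−1.62), with 10.49 for Ad.GFP and 5.92 to 7.40 on the treated arrays. Megf6 read 8.34 and 7.00 (−1.34), with 8.94 for Ad.GFP.

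Genes with only the FJ9 vehicle array at the extreme were of mixed kinds. Ttc36, a tetratricopeptide protein best known from liver, read 9.02 on the ICG-001 vehicle array and 6.37 on the FJ9 vehicle array (−2.65), 7.63 on the FJ9 array and 8.80 to 9.43 on the other 3. Col6a4, a collagen VI chain, read 7.88 and 5.92 (−1.97), with 7.59 to 8.48 on the other 4 arrays. Its 2 other probe sets differed by −0.77 and −0.44. Slc35g3, a putative nucleotide-sugar transporter, read 10.85 and 9.35 (−1.50), with 10.27 to 10.96 on the other 4.

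The nociceptin receptor gene Oprl1, also in this set, read 8.09 and 6.53 (−1.56), and the ATP-gated channel gene P2rx2 7.91 and 6.44 (−1.47). The exchange factor Rasgrp4 of mast cells read 7.34 and 5.53 (−1.80). Both arrays of the FJ9 experiment, vehicle and treated, were the 2 lowest for 14 of the 30 largest decreases, against 6.26% of all kept genes. These genes were chosen for a low FJ9 vehicle reading, which by itself favours that count, so the 6.26% is not a like share. Slc30a10, a manganese exporter, was at both extremes: highest on the ICG-001 vehicle array (8.96) and lowest on the FJ9 vehicle array (6.35), a difference of −2.61, with 6.86 to 7.86 on the others. The neuropeptide gene Agrp was also at both extremes (8.80 and 7.29, −1.51), with 8.02 to 8.75 on the others.

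Stellate cell markers were mostly level or somewhat lower on the FJ9 vehicle array. Of 12 measured stellate cell markers, 10 were kept, 0 were higher by at least 1.5-fold and 2 lower, 7 lay below 0, and the median was −0.06. Pdgfrb, the receptor of platelet-derived growth factor that marks these cells, read 12.46 and 12.42 on the ICG-001 and FJ9 vehicle arrays (−0.04), and the intermediate filament gene Vim 12.76 and 13.05 (0.29). The lower members were Lrat, which esterifies retinol for storage (11.46 against 10.52, −0.95), and the intermediate filament gene Des (10.17 against 9.58, −0.59), whose difference fell inside 1.5-fold after median centring (−0.46). The guidance protein gene Reln (12.29 and 11.72, −0.57) and the lectin gene Colec11 (11.45 and 10.90, −0.56) lay just inside the limit. Gfap, another filament gene of this cell type, lay under the level filter on both (6.17 and 5.35).

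Genes of the activated state differed in both directions. Of 26 kept myofibroblast and contractile genes, 3 were higher and 3 lower, with a median of 0.12. Over all kept genes 2.44% were higher and 5.2% lower. Myh11, the smooth muscle myosin heavy chain, read 7.26 and 8.03 (0.77) and Postn, the matricellular periostin, 8.33 and 8.97 (0.64). Myocd, the coactivator of smooth muscle genes, went the other way (7.19 against 6.27, −0.92). Together with Cnn1 these are the members past 1.5-fold, besides Des and the intermediate filament gene Synm (7.38 against 6.62, −0.76). Myocd and Synm (mean levels 6.57 and 6.65) lie in the lowest level bin, where 13.5% of genes were at least 1.5-fold lower. Myh11 (6.89) lies there too.

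Some collagen genes were lower on the FJ9 vehicle array. Of 21 kept, 0 were higher and 5 lower, with a median of −0.39. The summed level of the 23 measured collagens differed little, at 15.54 on the ICG-001 vehicle array and 15.45 on the FJ9 vehicle array (−0.09). The fibril collagen Col1a1, the main product of these cells, read 12.96 and 12.80 (−0.16). The 5 lower members were Col6a4, Col7a1 of anchoring fibrils (8.09 against 7.14, −0.95), Col27a1 (9.30 against 8.36, −0.94), the membrane collagen Col17a1 (8.95 against 8.06, −0.89) and the basement membrane chain Col4a4 (7.71 against 7.07, −0.64, but −0.51 after median centring). Less the median of all genes, the collagen median of −0.42 became −0.24 with no level filter and −0.26 with the lowest 50% of genes left out. Of 31 kept genes of other matrix proteins, 5 were higher and 1 lower with a median of 0.00. The lower one was the proteoglycan lumican, Lum (11.54 against 10.90, −0.64, but −0.50 after median centring), and the higher ones included versican, Vcan (9.84 against 10.47, 0.63), and Ccn3 (10.86 against 11.48, 0.63). Timp3, an inhibitor of matrix proteases, read 8.46 and 9.28 (0.82), and with Mmp12 it was 1 of 2 higher genes among 25 kept proteases and inhibitors, of which 0 were lower.

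Growth and signalling lists held few genes past 1.5-fold, apart from lower genes of DNA replication and mitosis. Over all kept genes 2.44% were higher and 5.2% lower, and in the lowest level bin 13.5% were lower. Of 26 kept genes of DNA replication and mitosis, 0 were higher and 4 lower, with a median of −0.29. Less the median of all genes, the list's −0.31 became −0.16 after the loess correction. The lower genes were the chromatin protein Uhrf1 (7.22 against 6.06, −1.16), the helicase subunit Cdc45 (7.03 against 5.97, −1.06), the topoisomerase Top2a (7.90 against 7.09, −0.80) and the mitotic activator Cdc20 (7.41 against 6.70, −0.71, but −0.57 after loess), all at low levels, where all genes tended to read lower on the FJ9 vehicle array. Of 40 kept genes of the Wnt pathway, which the study set out to block, 1 was higher (Frzb) and 1 lower (Wif1, another secreted antagonist, 6.81 against 6.19, −0.62, but −0.42 after the loess correction), with a median of −0.11. The feedback gene Axin2 read 8.94 and 8.77 (−0.17), the cyclin Ccnd1 12.12 and 12.13 (0.00) and Myc 9.99 and 9.97 (−0.03). Of 34 kept genes of the TGF-beta and BMP pathway, 1 was higher (Gdf6, 8.95 against 9.91, 0.96) and 1 lower (Bmp7, 7.02 against 6.34, −0.68, but −0.50 after loess), with a median of 0.09. Of 40 kept growth factor and receptor genes, 0 were higher and 3 lower: Igfbp5, Fgf7 (8.14 against 7.31, −0.84) and Igfbp4 (6.97 against 6.22, −0.74, but −0.55 after loess).

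Stress and housekeeping lists held few differences. Among 43 kept cytosolic ribosomal protein genes, 19 heat shock genes, 22 p53 targets, 13 circadian clock genes and 10 histone genes, 0 passed 1.5-fold in either direction. Their medians were 0.04, 0.12, 0.08, 0.25 and −0.08. The clock list had 8 members above 0, with the repressor Bhlhe41 (6.53 against 7.05, 0.52) and the output factor Dbp (8.47 against 8.96, 0.49) at the top. Of 44 kept genes of the unfolded protein and amino acid response only the pseudokinase Trib3 passed the limit (8.37 against 7.76, −0.61, but −0.48 after median centring), and of 38 kept oxidative stress genes only Sod2. Of 44 kept respiratory chain genes, the testis form of a cytochrome oxidase subunit, Cox6b2, was the 1 lower member (8.62 against 7.01, −1.61), and 0 were higher.

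**Figure D4:**
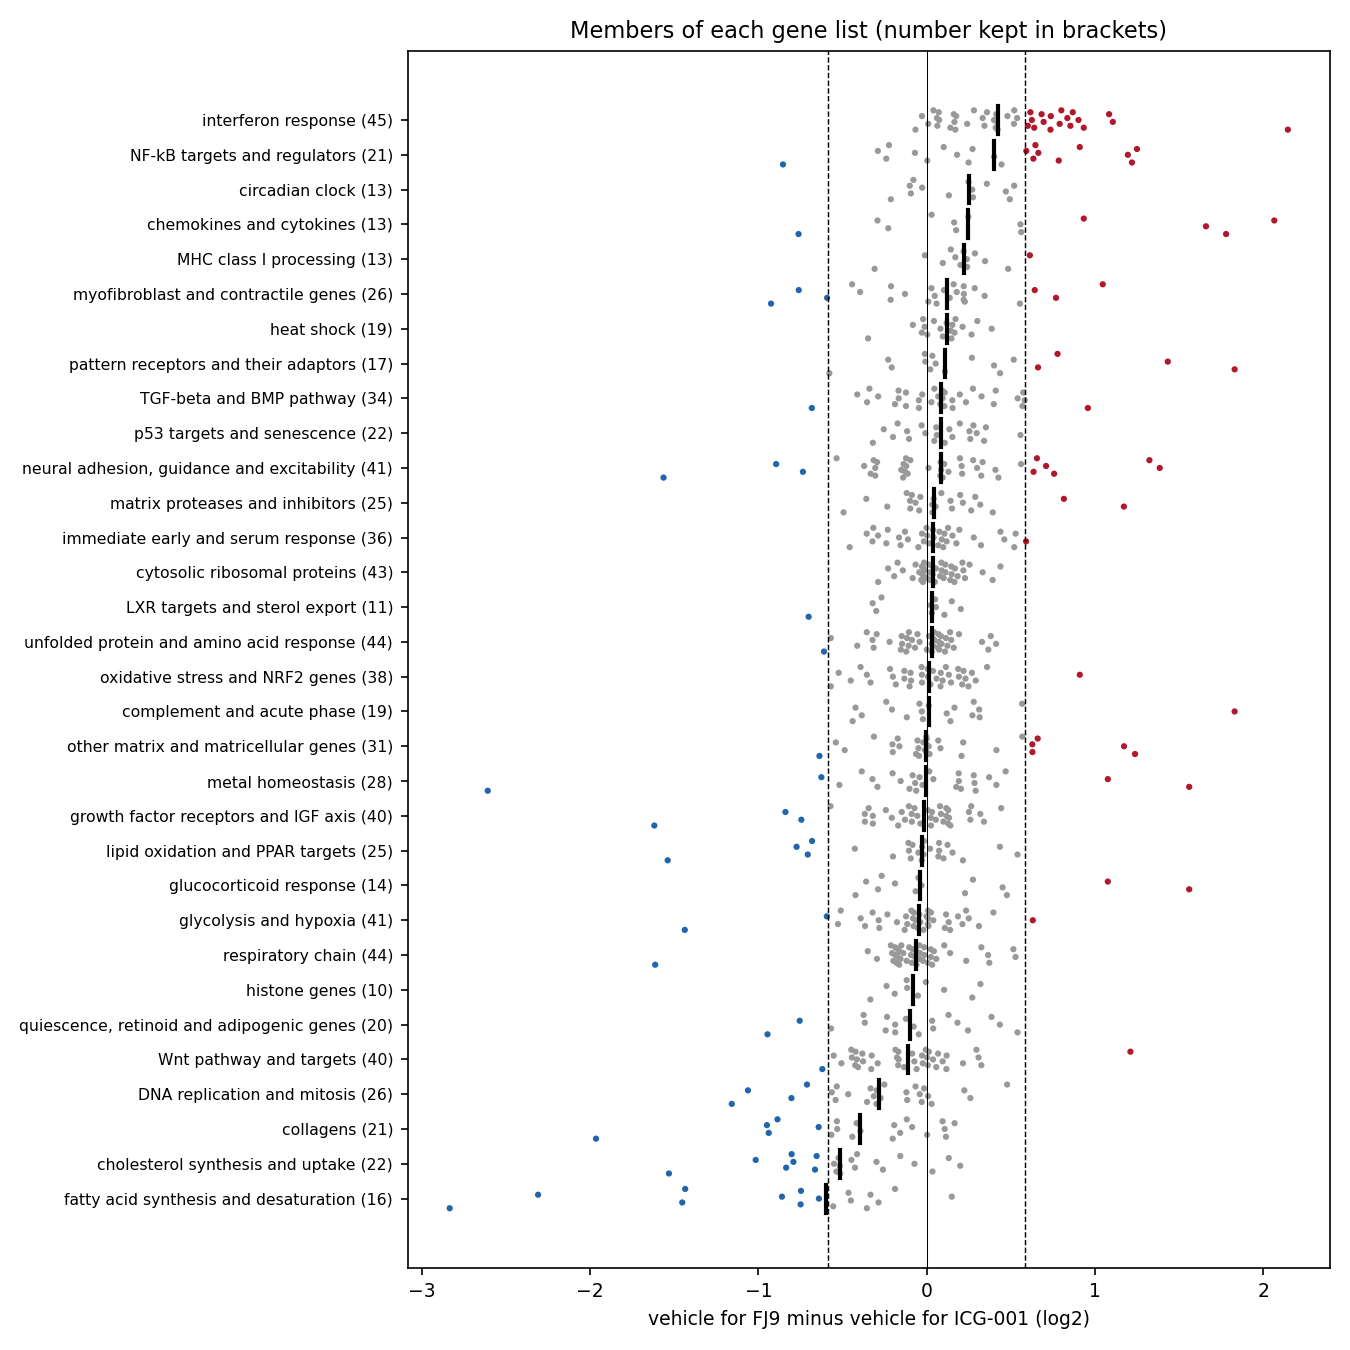
Each dot is 1 kept gene, placed by its log2 difference, FJ9 vehicle minus ICG-001 vehicle, in the lists with at least 10 kept members (black bars are list medians, dashed lines 1.5-fold, red higher and blue lower). The interferon and NF-kB lists have the highest medians (0.42 and 0.40) and the cholesterol and fatty acid lists the lowest (−0.52 and −0.60), and most other lists centre near 0.

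Most markers of other liver cells lay under the level filter, with exceptions given below, and in pooled RNA fewer cells of a type cannot be told apart from less RNA per cell. Of 15 measured Kupffer cell and macrophage markers, 3 passed the level filter, and the list's summed level was 10.40 on the ICG-001 vehicle array and 10.67 on the FJ9 vehicle array (0.27). The macrophage lysozyme Lyz2 read 7.16 and 8.14 (0.98) and the lysosomal Cd68 7.83 and 8.44 (0.62), the 2 kept markers past 1.5-fold. The Kupffer cell genes Clec4f (5.94 and 5.93), Marco (6.92 and 6.39), Vsig4 (6.24 and 5.69) and Cd163 (6.43 and 5.39) lay under the filter and were level or lower on the FJ9 vehicle array. They do not stand for the list: the median difference over all 15 measured markers was 0.13, so other markers under the filter were higher. These marker levels moved partly with the inflammatory genes, and their part in that result was not tested.

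The other marker lists also rested on few kept members. Of 7 measured endothelial markers 4 were kept, with summed levels of 10.80 and 10.87. The transcription factor Erg read 7.08 and 8.28 (1.20), while the receptor Flt1, well above the filter, read 10.09 and 10.06 (−0.03) and Cdh5, a junction gene of endothelium, read 5.85 and 5.86. Of 14 measured hepatocyte markers 4 were kept, with summed levels of 10.62 and 10.25. The secreted liver protein gene Ahsg read 8.56 and 7.86 (−0.70, but −0.57 after median centring), and albumin, Alb, under the filter, 7.10 and 6.13 (−0.97). Lymphocyte markers had summed levels of 10.34 and 10.04 and 0 of 4 kept members past 1.5-fold. Cholangiocyte markers had 8.87 and 9.07, with Epcam at 6.52 and 7.45 (0.93), and portal fibroblast and mesothelial markers 11.79 and 11.61 with 0 of 5 past the limit, of which Mfap4 (10.50 and 10.33) and Wt1 (9.30 and 9.25) read high on both arrays. No array had a marker at 0, since the deposited values stop at a floor of 4.00.

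The treated arrays offered a second look at the same experiments, because they are different arrays from the vehicles. The FJ9 array minus the ICG-001 array contrasts the experiments as well as the compounds, which cannot be told apart. In that contrast 1074 genes (10.7%) passed 1.5-fold upwards and 1442 (14.4%) downwards. Of the 245 genes higher on the FJ9 vehicle array, 156 (63.7%) were also higher on the FJ9 than on the ICG-001 array, against 48.7% of all kept genes, and 76 (31.0%) by at least 1.5-fold. In the opposite direction past 1.5-fold were 42 (17.1%). Of the 521 lower genes, 325 (62.4%) were also lower on the FJ9 array, against 51.3% of all kept genes, and 96 (18.4%) by at least 1.5-fold. Past 1.5-fold the other way were 16 (3.07%). The vehicle and treated differences had the same sign for 57.8% of all kept genes, so 63.7% and 62.4% lie only somewhat above that share. Over all kept genes the differences correlated with Pearson's r of 0.18 and a Spearman rank correlation of 0.20 (across genes, as a description).

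The programmes separated in this respect. Members of the fatty acid list were lower on the FJ9 array as well (median −0.71, 0 higher and 10 lower), as were those of the cholesterol list (median −0.79, 0 higher and 12 lower). NF-kB genes were higher on both FJ9-experiment arrays than on the ICG-001 ones (median 0.41 between the treated arrays, 6 higher and 2 lower). Interferon genes went the other way: they were higher on the FJ9 vehicle array, but between the treated arrays their median was −0.42, with 3 higher and 17 lower. Single genes showed both kinds. Cxcl1 differed by 2.44 and Lbp by 1.94 between the treated arrays, near their vehicle differences, while Ccl2 differed by 0.05 and Mx2 by −1.66. Among the decreases Fads1 differed by −2.60 and Ttc36 by −1.41, Slc30a10 by −0.37, and Cyp4b1, a fatty acid hydroxylase that was 2.64-fold lower on the FJ9 vehicle array (7.92 against 6.52), differed by 1.75.

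**Figure D5:**
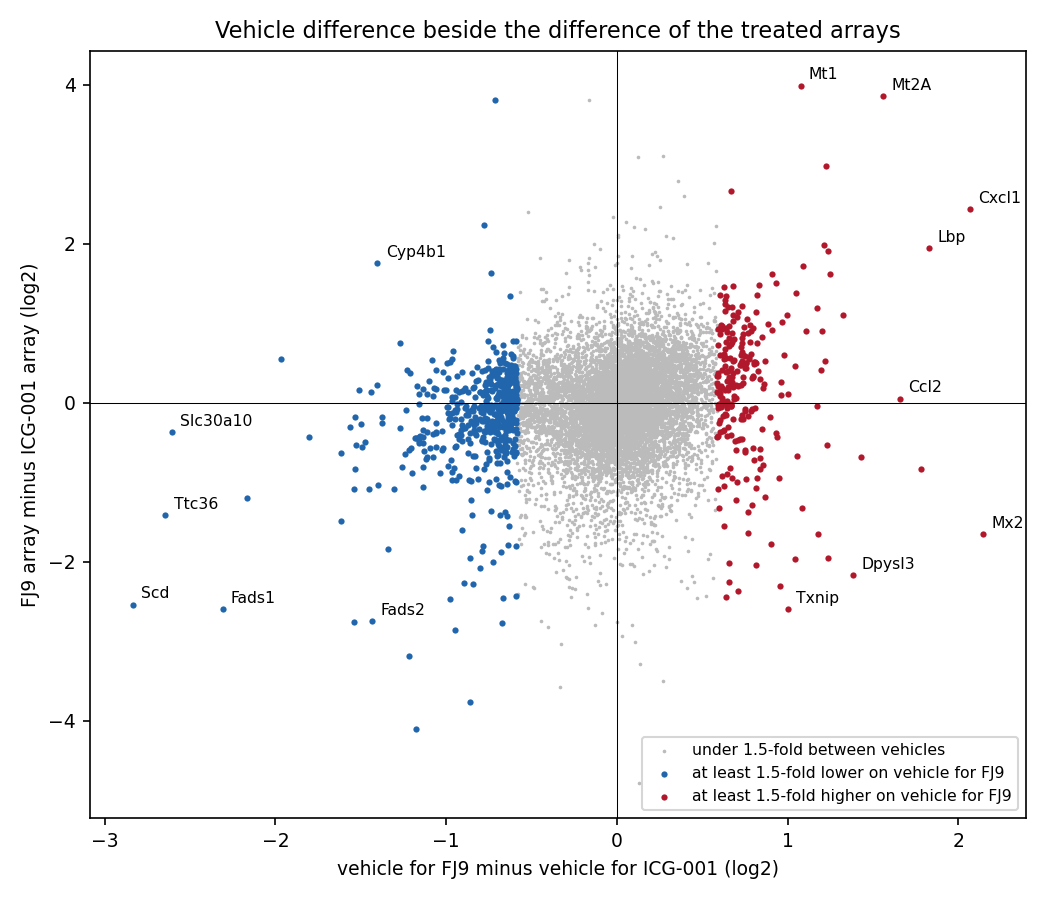
Each point is 1 of 10025 genes, with the vehicle difference (FJ9 vehicle minus ICG-001 vehicle, log2) on the horizontal axis and the FJ9 array minus the ICG-001 array (log2) on the vertical axis, which use 4 different arrays. Of the 245 red genes 156 lie above 0 and of the 521 blue genes 325 lie below 0, while 57.8% of all kept genes have the same sign on both axes. Mx2, Dpysl3 and Txnip are among the red genes in the lower right.

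The Ad.GFP array, another control culture, with virus and a different serum schedule, did not side with either vehicle over the genes as a whole. It was nearer to the ICG-001 vehicle for 258 of the 521 lower genes and for 115 of the 245 higher genes, against 50.2% of all kept genes. Among the 30 largest decreases Ad.GFP was nearer to the ICG-001 vehicle for 27. Among the 30 largest increases it was nearer to the FJ9 vehicle for 18. These genes were chosen by the difference of the vehicle arrays, and the FJ9 vehicle array was the lowest of all for 18 of the 30 decreases. That choice by itself favours a reading nearer to the ICG-001 vehicle, so the 27 cannot show which vehicle Ad.GFP resembled.

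Where a gene past 1.5-fold had further probe sets they mostly pointed the same way: of 29 such probe sets of 23 genes, 27 had the same sign, 16 of them past 1.5-fold, and 2 the opposite sign. The count at 1.5-fold has no natural edge. The nearest genes past the limit were Cadm1 at 0.59 and Fbll1 at −0.59, and those just short of it, Rhobtb2 and Pacsin3, stood at 0.58 and −0.58.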

How the data were processed

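Levels were used as the authors deposited them, on the log2 scale (26988 probe sets, 6 arrays). The submitters' processing notes name RMA and Affymetrix Expression Console, with versions not given in the sources used here. RMA subtracts background, equalises array distributions and summarises probes. Names came from the platform annotation: 15092 probe sets had 1 symbol, 323 several, and 11573 were not listed. The symbols were checked against RefSeq's gene table (GRCr8), used for names alone. Of a gene's probe sets the one with the highest mean over the 6 arrays was kept (497 of 14322 genes had several), and the lowest 30% of gene means (up to 6.39) were left out. Differences were taken in Python 3.11.15 with pandas 2.3.3, and called at 1.5-fold (0.58 on the log2 scale). Scalings were recomputed with limma 3.58.1 in R 4.3.3 (loess span 0.3). The counting script was tested on simulated data. No test of a condition was possible with 1 array a group, and the number of arrays limits the precision.

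Genes named in the text were taken from the 30 largest increases and decreases past 1.5-fold, up to 6 members of each of 41 gene lists with the largest absolute difference, and from Scd, Fads1, Mx2, Cxcl1, Ccl2, Des, Col1a1, Pdgfrb, Axin2, Ccnd1 and Myc. Which of these the text describes was chosen after their values were seen, and the plot of the extreme genes shows all 60 of the largest. Symbols of uncharacterised loci, small RNAs and olfactory, vomeronasal and taste receptors were counted, not named. Gfap, Cdh5, Alb and the Kupffer cell genes under the level filter, and the genes at the 1.5-fold limit, were named outside this rule after their values were seen. Members and lists were chosen with earlier results of these data known. Of 1278 list symbols 1073 were measured, 10 under a synonym.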

Additional observations from a re-analysis of the deposited data

How the results depend on the processing

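No paired analysis was possible because each group holds 1 array, and leaving out an array would leave no comparison. No alternative turned the sign of a list whose median lay at least 0.20 from that of all genes, and all 119 named genes past 1.5-fold kept their direction under median centring, repeated quantile normalization and loess, and 102 stayed past 1.5-fold under each. The counts of higher and lower genes, 245 and 521 as reported, moved with the scale: 575 and 265 after median centring, 457 higher after quantile normalization. They moved with the level filter too, to 410 higher and 1123 lower (1533 in all, of 14322 genes) with none, and to 128 and 168 (296 in all, of 7161) with the lowest 50% left out. The share of lower genes that were also lower on the FJ9 than on the ICG-001 array, 62.4%, became 72.1% after centring, 68.1% after quantile normalization, 71.5% after loess, 54.7% with no level filter and 76.8% with the lowest 50% left out; the cause was not tested. List medians less that of all genes moved by over 0.10 for 4 lists with at least 10 kept members, and for some with fewer. DNA replication and mitosis, −0.31 as reported, became −0.17 after quantile normalization, −0.16 after loess and −0.17 with the lowest 50% left out. Collagens, −0.42, became −0.24 with no filter and −0.26 with the lowest 50% left out. The fatty acid list, −0.62, became −0.44 with no filter, and the chemokines, 0.22, became 0.50 with the lowest 50% left out, where fewer members remain.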

Other observations

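Genes of neural adhesion, guidance and excitability held differences in both directions that no list above covers. Of 41 kept members, 6 passed 1.5-fold upwards and 3 downwards on the FJ9 vehicle array, with a median of 0.08. The higher members included Lrig3, a leucine-rich repeat membrane protein (6.78 on the ICG-001 vehicle array, 8.10 on the FJ9 vehicle array, 1.32), and the neurofilament gene Nefm (5.60 and 6.36, 0.76). The lower members besides Oprl1 were the ephrin receptor Ephb2 (8.94 and 8.05, −0.89) and the semaphorin Sema5a (9.35 and 8.62, −0.74), and these were lower on the FJ9 than on the ICG-001 array too (−2.27 and −1.37).

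Probe sets outside the named and kept genes leaned further to the lower side. Of 11896 probe sets with no single symbol, 462 passed 1.5-fold upwards and 1286 downwards, with a median of −0.08. Of the 4297 named genes under the level filter, 165 were higher and 602 lower, with a median of −0.18. The kept symbols that the rule counted but did not name numbered 149, of which 0 were higher and 21 lower.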
